A study of Mus musculus with 6 samples.

Results

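The S100 family was measured in crypts of the mouse colon, the glands of its epithelium, from untreated mice, from mice given dextran sulfate sodium (DSS), and from colon adenomas. The members were the probe sets annotated to exactly 1 of 9 S100 symbols, and 10 such probe sets were found for 8 genes (S100a1, S100a4, S100a6, S100a8, S100a9, S100a10, S100a13 and S100g), out of 12393 genes with a probe set of their own. The ninth, S100a11, had no probe set annotated to it alone. All 8 genes were among the 7456 that passed the filter on low signal and were tested.

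Each of the 6 Affymetrix arrays, 2 per group, carried a pool from 2 male mice that were heterozygous for Lgr5-lacZ, a lacZ reporter at the stem cell receptor gene Lgr5, so the controls carried the reporter too. Control crypts came from the distal colon of mice aged 6 to 8 weeks on drinking water, and DSS crypts from the distal colon of mice of that age on day 2 of 1% DSS, which injures the colonic epithelium. Tumor crypts came from 12 pooled adenomas per array, taken 90 days after 12.5 mg per kg of azoxymethane (AOM), a colon carcinogen injected at 6 to 8 weeks of age. Those mice also drank 2, 1.5 and 1.0% DSS for 5 days each, with 14 days of plain water between, so tumor mice differed from the others in age, carcinogen and DSS cycles together. The arrays carried pools and crypts were isolated without a stated sort, so p-values measure the spread between pools and not between single mice.

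S100 proteins are small proteins with a pair of EF-hands, the helix-loop-helix fold that holds a calcium ion. Most work as dimers that open on binding calcium and then grip a partner such as an annexin, a myosin or a receptor, and some are also released from cells as alarm signals. S100a8 and S100a9 pair to form calprotectin, an antimicrobial protein that sequesters zinc and manganese and whose level in stool is a clinical measure of gut inflammation. Neutrophils and monocytes are its classic source, and stressed epithelia can make it too. S100g is the small calbindin of the intestine, a cytosolic calcium carrier under the control of vitamin D.

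Colonic epithelium markers were high throughout: all 12 of the list lay above the array median on every array, and Krt8, a keratin of simple epithelia, had intensities from 16090.0 to 23130.5. Within that list 10 of 12 genes had a negative log2 difference in tumor against control. Car1, a carbonic anhydrase of mature colonocytes, fell from 9564 and 12044 in control to 4257 and 2212 in tumor crypts (limma adjusted p = 0.00339), and the intestinal transcription factor Cdx1 fell by 0.80 on the log2 scale (limma adjusted p = 0.0244), while Krt18 rose by 0.63 (limma adjusted p = 0.0218). These 3 were named after their values were seen. Array medians lay between 94.2 and 131. Signal of other cell types differed between arrays. Fibroblast markers, 9 of 9 with a probe set, summed to 2254 and 4342 in control, 2929 and 5467 in DSS and 4964 and 14231 in tumor crypts (replicates 1 and 2). Without Vim, the brightest of them, the sums were 1967 to 4502 on the control and DSS arrays and 1487 and 7819 on the tumor arrays, so tumor replicate 1 was then the lowest of all. T, NK and B cell markers summed to 166 to 354 on the replicate 1 arrays and to 1948 to 3313 on the replicate 2 arrays, of which Jchain, a gene of plasma cells, gave 1637 to 3094. The mean signal of spiked poly-A controls was 777 for control replicate 1, 1168 for DSS replicate 1 and between 312 and 394 elsewhere. In such bulk samples, more cells of a type and more RNA per cell cannot be told apart.

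Of the S100 genes, S100a8, S100a9 and S100a4 rose in tumor crypts and S100a1 and S100a13 fell, while S100a6, S100a10 and S100g did not pass the test (limma, Benjamini-Hochberg adjustment over all 7456 genes). Among all genes tested in tumor against control, 22.6% were called, 12.9% higher and 9.75% lower. Groups did not overlap for 33.8% of all genes with tumor higher and for 27.7% with tumor lower; of the S100 genes, S100a4, S100a8 and S100a9 lay wholly above control and S100a1, S100a13 and S100g wholly below. S100a8 and S100a9 passed the filter through the tumor arrays alone, so no more is read from these counts.

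**Figure D1:**
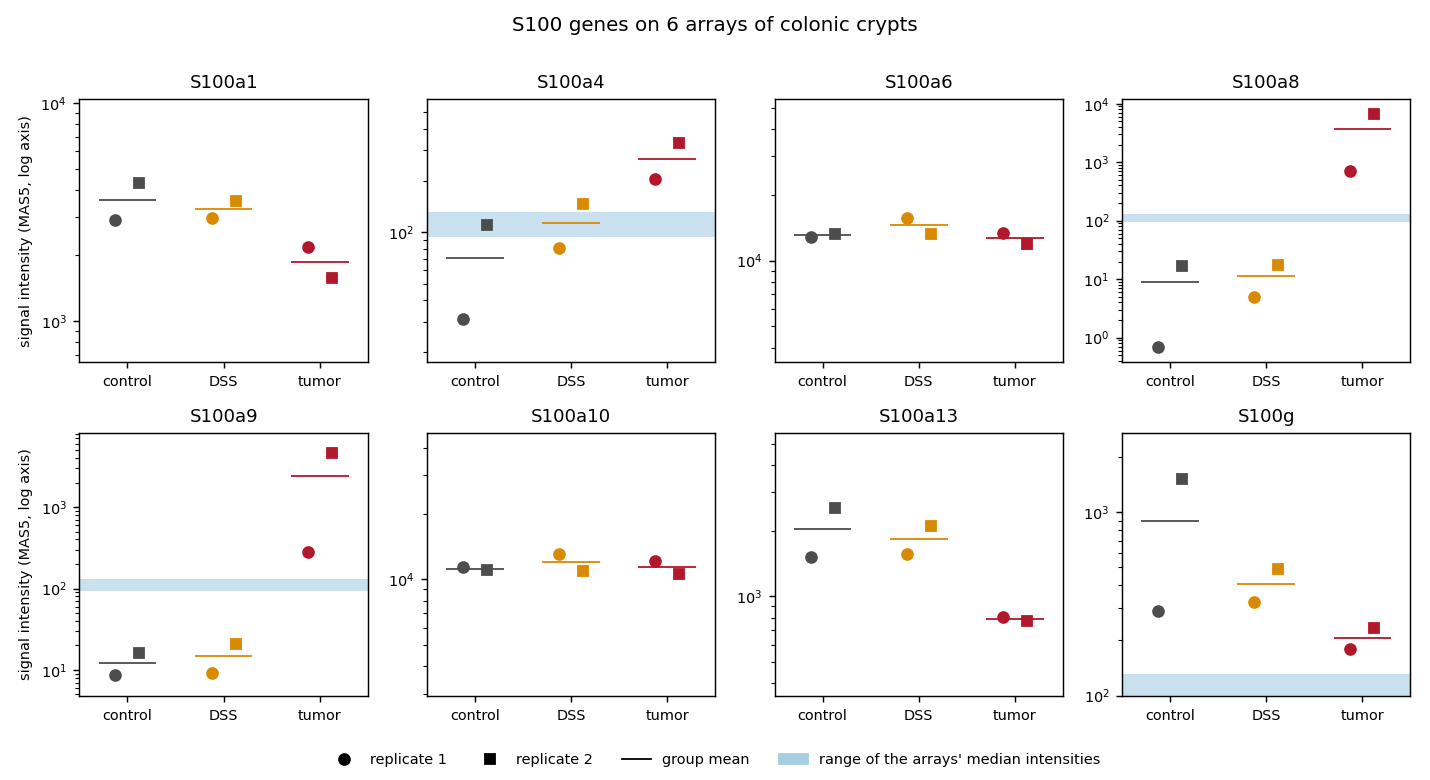
Signal intensity (log axis) of the 8 measured S100 genes on each array, by group; circles are replicate 1, squares replicate 2, lines group means, and the blue band spans the medians of the arrays. S100a8 and S100a9 lie under the band in control and DSS crypts and above it on both tumor arrays, while S100a6 and S100a10 overlap across all 3 groups.

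S100a8, a subunit of calprotectin, had intensities of 0.676 and 17.0 in control, 4.91 and 17.6 in DSS and 698 and 6638 in tumor crypts. S100a9, its partner, measured 8.65 and 16.003 in control, 9.25 and 20.6 in DSS and 281 and 4555 in tumor crypts. On all 4 control and DSS arrays both genes lay far under the array median, and both tumor arrays lay above every other array. The tumor arrays themselves were far apart, with replicate 2 above replicate 1 by 9.51 times for S100a8 and 16.2 times for S100a9. On the log2 scale with a pseudocount of 17.7 added, S100a8 rose by 6.43 ± 0.88 (SE, n = 2 and 2, limma adjusted p = 0.00186). S100a9 rose by 5.29 ± 1.02 (limma adjusted p = 0.00829). Both genes passed the filter through the tumor arrays alone, and their control values lie under the pseudocount. Their p-values are therefore given but not used as support. With control signal near the floor, the size of these changes follows the pseudocount: S100a8 was at 8.61 and S100a9 at 6.47 with a pseudocount of 1, and at 4.34 and 3.50 when the median of the values was added. Without tumor replicate 2, S100a8 was at 4.82 and S100a9 at 3.32, and without tumor replicate 1 at 8.04 and 7.26.

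Against DSS crypts, S100a8 was higher in tumor crypts by 6.27 ± 0.88 (limma adjusted p = 0.00183) and S100a9 by 5.18 ± 1.02 (limma adjusted p = 0.00799). In that comparison 26.2% of all genes tested were called, 14.9% higher and 11.3% lower, and groups did not overlap for 35.3% with tumor higher and 30.7% with tumor lower. It shares the tumor arrays with the comparison against control, and the p-values of S100a8 and S100a9 have the same limit from the filter. Day 2 of DSS moved neither gene past the test: S100a8 differed by 0.16 (95% interval -1.86 to 2.18) and S100a9 by 0.11 (-2.24 to 2.45). The intervals rest on 1 spread for all groups, to which the tumor arrays gave most: for S100a9 they lay 3.94 apart on the log2 scale, against 0.35 for the control and 0.51 for the DSS arrays. Over the 6 arrays, the genes most like S100a8 in their log2 values were Cxcl2, a chemokine that draws neutrophils (Pearson r = 0.997), Rap2b, a small GTPase (0.997), and Cadps, a vesicle priming factor (0.996). Such r values describe 6 points in which the tumor arrays stand apart from the rest.

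Markers of cells that make calprotectin did not all rise on the tumor arrays. Of 16 neutrophil markers 13 had a probe set, and their summed intensity was 546 to 1465 in control, 548 to 1619 in DSS and 1938 and 3859 in tumor crypts. Cd177 gave most of that sum, with control arrays at 1321 and 393, DSS arrays at 383 and 1396 and tumor arrays at 1543 and 2429.8. Of the 13, 2 were tested, Cd177 and Padi4, and Cd177 did not pass against control (1.40, limma adjusted p = 0.163). Without it the sum was 145 to 223 on the control and DSS arrays and 395 and 1429 on the tumor arrays. On each control and DSS array 1 of the 13 lay above the array median, against 2 on tumor replicate 1 and 5 on tumor replicate 2. On tumor replicate 2 the granule genes Ltf and Ngp reached 293 and 201 and the gelatinase Mmp9 208, whereas on tumor replicate 1 they had 84.0, 9.47 and 40.8. For Ngp, tumor replicate 1 lay below both control arrays, at 21.9 and 20.4. The myeloid granule genes Mpo, at 0.579 to 8.45, and Elane, at 6.82 to 34.7, stayed under the median on every array, as did the integrin Itgam at 9.80 to 18.6. Padi4, a histone-modifying enzyme of neutrophils, had 11.3 and 2.75 in control, 16.8 and 7.39 in DSS and 162 and 311 in tumor crypts. It passed the filter through the tumor arrays alone, and its control values lie under the pseudocount, so its test is not used.

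Macrophage and monocyte markers, 12 of 13 with a probe set, summed to 413 and 1387 in control, 455 and 1448 in DSS and 3395 and 7556 in tumor crypts. Without Lyz2 the sums were 294 and 927 in control, 307 and 960.4 in DSS and 640.1 and 2401 in tumor crypts. Tumor replicate 1 then lay below control and DSS replicate 2, while within each replicate number the tumor sum was the highest. Of the 5 tested, 1 was called against control, beside 22.6% of all genes tested. All 5 had a positive difference, with a median of 1.38 against 0.05 over all genes. Lyz2, the lysozyme of myeloid cells, rose by 3.89 (limma adjusted p = 0.00469). Its control arrays had 119.5 and 460.4, and its tumor arrays 2755 and 5154. Squamous epithelium markers, 11 of 12 with a probe set, summed to 187 to 324 on the control and DSS arrays and to 1448 and 1465 on the tumor arrays, with Krt14, a basal keratin, at 343 and 297 in tumor crypts. The part of any of these cells in the rise of S100a8 and S100a9 was not tested.

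**Figure D2:**
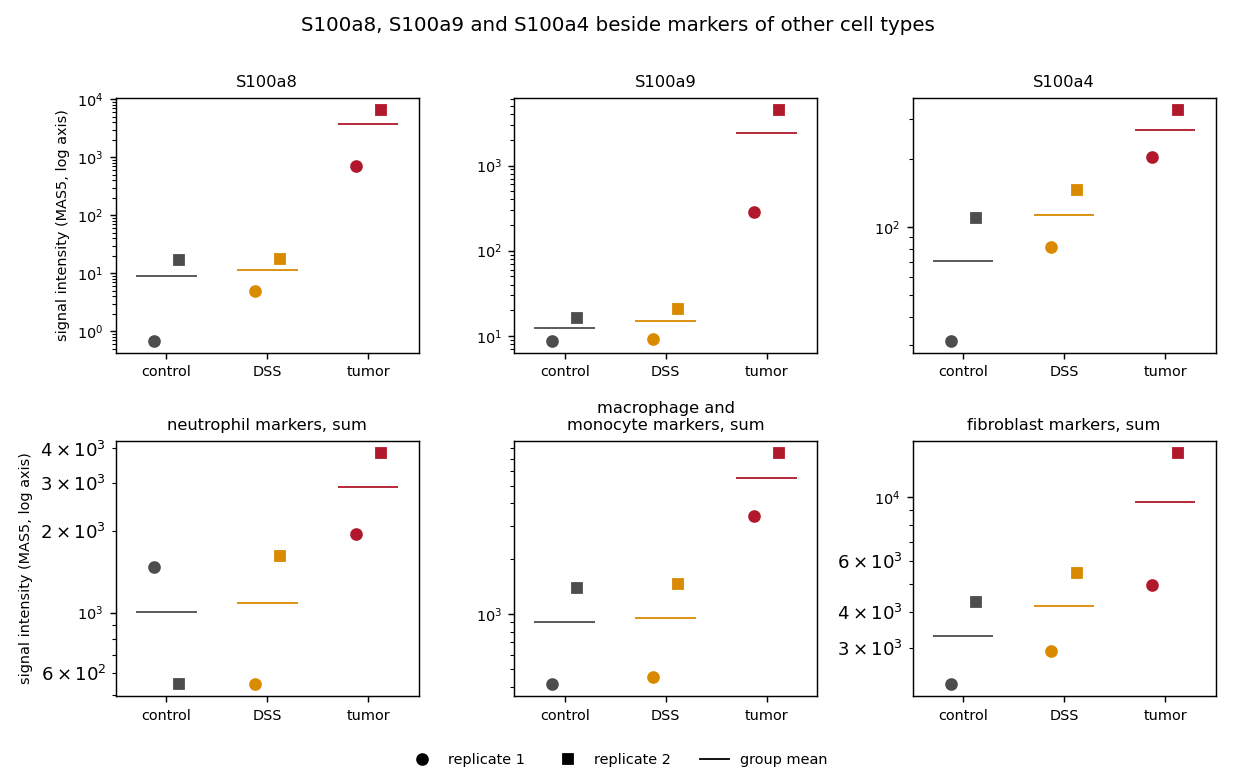
Signal intensity (log axis) of S100a8, S100a9 and S100a4, and summed intensity of 3 marker lists, on each array by group; circles are replicate 1, squares replicate 2, lines group means. The replicate 2 arrays lie above the replicate 1 arrays in every group for these 3 genes and for the macrophage and fibroblast sums, and tumor replicate 2 is the highest array in each panel.

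The genes of S100a8 and S100a9 are neighbours on chromosome 3 with no other protein-coding gene between them in RefSeq's annotation, and they are read in opposite directions. Because they moved together, the 250 bases before each annotated start are shown, from RefSeq on GRCm38.p6. Capitals mark TATAAA or TTGCNNAA, the letters searched for a TATA box and for a C/EBP site. S100a8 lies on the plus strand, with the region at chr3:90668821-90669070, and S100a9 on the minus strand, at chr3:90695722-90695971.
S100a8: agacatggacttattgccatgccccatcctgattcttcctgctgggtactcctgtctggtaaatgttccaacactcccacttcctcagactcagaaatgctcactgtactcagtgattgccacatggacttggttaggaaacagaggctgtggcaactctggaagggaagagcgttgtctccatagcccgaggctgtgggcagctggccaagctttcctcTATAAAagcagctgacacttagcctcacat
S100a9: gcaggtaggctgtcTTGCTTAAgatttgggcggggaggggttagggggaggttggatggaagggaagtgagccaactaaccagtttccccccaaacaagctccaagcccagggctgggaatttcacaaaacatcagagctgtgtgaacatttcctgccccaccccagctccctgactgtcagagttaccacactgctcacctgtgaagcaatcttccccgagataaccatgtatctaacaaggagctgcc

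In S100a8, TATAAA began 30 bases before the start. In S100a9, TTGCTTAA began 236 bases before the start, and TATAAA lay at bases 1 to 6 after it, just past the printed stretch. Both strands were searched over windows of 300 bases, 250 before and 50 after the start, for 5 motifs: TGANTCA (AP-1, the same on both strands), TTGCNNAA (C/EBP), CTTTGAT (TCF), TATAAA and an NF-kB motif. No matches of different motifs overlapped in the S100 windows. Of all 32851 promoter windows, 13.6% held TATAAA, 10.8% TTGCNNAA, 7.81% TGANTCA, 3.73% CTTTGAT and 1.63% the NF-kB motif. Windows were given for 7 of the 8 measured genes, all but S100a10. TATAAA was also present in S100a4, 31 bases before its start, and in S100g, at bases 1 to 6 after it, and TTGCNNAA in S100g on the opposite strand. No window of the 7 held the AP-1, TCF or NF-kB motif, and none of the 5 motifs was found in S100a1, S100a6 or S100a13.

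S100a4, which binds the tail of non-muscle myosin and marks fibroblasts and many leukocytes, rose in tumor crypts. Its intensities were 31.3 and 110.3 in control, 81.4 and 145 in DSS and 204 and 331 in tumor crypts. Both tumor arrays lay above all others, while control and DSS arrays overlapped around the array median. The log2 change against control was 1.81 ± 0.48 (limma adjusted p = 0.0286), and that against DSS was 1.13 ± 0.48 and did not pass (limma adjusted p = 0.119), though it did in 4 of 17 alternatives: without control replicate 1 (limma adjusted p = 0.0498), with the compared groups alone (0.0488) and in both fits with a replicate block (0.0176 and 0.00147). In DSS against control the difference was 0.68 (95% interval -0.41 to 1.78). The tumor call ended without control replicate 1, at 1.12, without tumor replicate 2, at 1.49, and without the filter on low signal, where more genes share the adjustment (limma adjusted p = 0.0635). In each group the replicate 2 array was the higher for S100a4, as it was for the fibroblast, macrophage and lymphocyte sums given above. Without Jchain, however, the lymphocyte sum was 168 and 167 in control (replicates 1 and 2). The mesenchymal filament gene Vim rose from 287 and 799.9 in control to 3477 and 6413 in tumor crypts. Of the 7 fibroblast markers tested, 2 were called higher (Vim and Fn1) and none lower, beside 12.9% and 9.75% of all genes tested. Of these markers 4 had a negative difference, and the median was -0.46. Their part in the S100a4 signal was not tested.

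S100a1 and S100a13, the pair at one end of the gene cluster, fell in tumor crypts. S100a1, best known in muscle, where it acts on the ryanodine receptor, measured 2896 and 4283 in control, 2965 and 3552 in DSS and 2181 and 1570.2 in tumor crypts. S100a13, which takes part in the export of the growth factor Fgf1, measured 1519 and 2538 in control, 1563 and 2111 in DSS and 802 and 776 in tumor crypts. For both genes each tumor array lay below all 4 others, while control and DSS arrays overlapped. S100a1 fell by 0.92 on the log2 scale (SE 0.24, limma adjusted p = 0.0276), to 0.523 of the control mean. Its other probe set gave a change of -0.998, with control arrays at 1152 and 1770.2 and tumor arrays at 883 and 565. S100a13 fell by 1.30 (SE 0.26, limma adjusted p = 0.00969), to 0.389 of the control mean.

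Against DSS crypts, S100a1 fell by 0.80 (limma adjusted p = 0.0398) and S100a13 by 1.19 (limma adjusted p = 0.0122). In DSS against control S100a1 differed by -0.12 (95% interval -0.67 to 0.43) and S100a13 by -0.11 (-0.70 to 0.48), with neither past the test. The S100a13 call in tumor against control held whichever array was left out, with changes from -1.66 to -0.93, and its call against DSS ended without DSS replicate 2 (-0.97). Car1 and Cdx1, named above, were also lower in tumor crypts than in DSS crypts, by 1.77 and 1.03 (limma adjusted p = 0.00308 and 0.00770). The other 10 epithelium markers were not called against DSS. Of the 12, 10 had a negative difference and 2 a positive one, Krt18 at 0.34 and the keratin Krt20 at 0.41. The part of a shift among epithelial cells in the fall of S100a1 and S100a13 was not tested. The S100a1 call in tumor against control ended without control replicate 2 (-0.64), without tumor replicate 2 (-0.69) and without the filter (limma adjusted p = 0.0515). Against DSS, the S100a1 call ended without either DSS array (-0.93 without replicate 1, -0.67 without replicate 2), without tumor replicate 2 (-0.57), without the filter (limma adjusted p = 0.0699) and without the intensity trend (limma adjusted p = 0.0623).

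In RefSeq's annotation S100a1 and S100a13 stand head to head, with the given starts 104 bases apart and the genes read away from each other. The stretch between these starts, at chr3:90514331-90514434 of GRCm38.p6, is shown on the plus strand, toward S100a13, because it lies before both genes. It is 58.7% G and C, and it has no capitals because none of the 5 motifs was found in it.
S100a1-S100a13: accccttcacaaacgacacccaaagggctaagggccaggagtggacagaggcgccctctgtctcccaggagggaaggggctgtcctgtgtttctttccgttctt

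**Figure D3:**
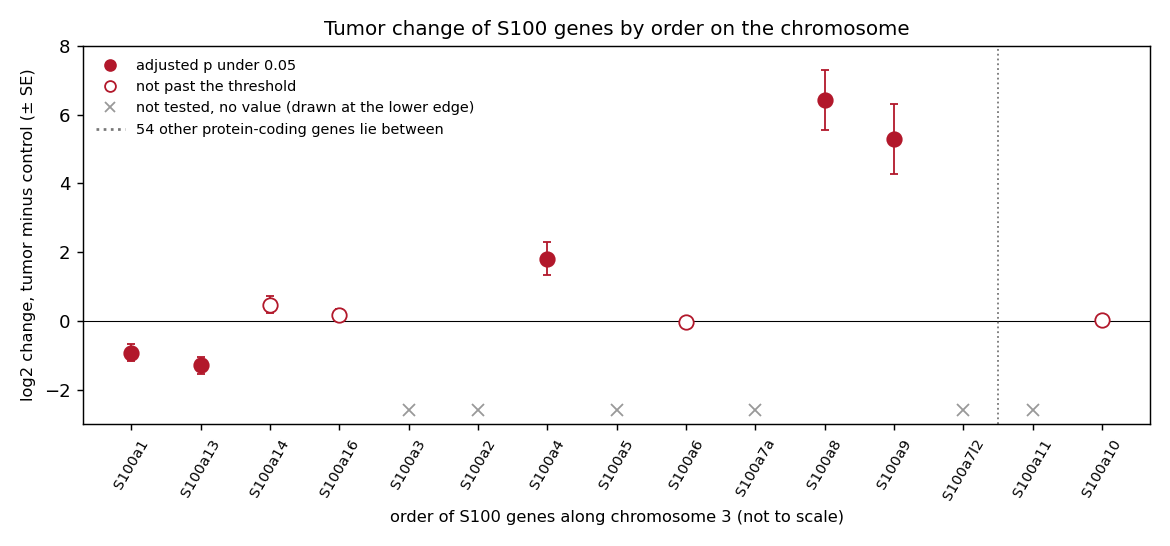
Log2 change (± SE) in tumor against control crypts for S100 genes in their order along chromosome 3 (not to scale); filled circles passed an adjusted p of 0.05, open circles did not, crosses were not tested, and the dotted line marks 54 other protein-coding genes. S100a1 and S100a13 at one end are below 0, S100a8 and S100a9 at 6.43 and 5.29, and S100a6 between them is near 0.

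Of the measured S100 genes 7 lie on chromosome 3, and in RefSeq's order the run from S100a1 to S100a9 holds no gene of another family. Members in this run did not move one way: S100a1 and S100a13 fell, S100a4, S100a8 and S100a9 rose, and S100a6, which sits between S100a4 and S100a8, did not pass. S100a14 and S100a16, epithelial S100 genes next to S100a13, did not pass either, at 0.47 and 0.18 on the log2 scale (limma adjusted p = 0.197 and 0.496). S100a10 lies further along, past 54 other protein-coding genes.

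S100g, the intestinal calcium carrier and the only member here on chromosome X, did not pass in any comparison. Its intensities were 289.8 and 1511 in control, 324 and 488 in DSS and 179 and 234 in tumor crypts. Both tumor arrays lay below all 4 others, and control replicate 2 stood apart at 5.21 times control replicate 1. The log2 difference was -1.62 ± 0.62 in tumor against control (limma adjusted p = 0.0963), -0.90 ± 0.62 in tumor against DSS (limma adjusted p = 0.321) and -0.72 ± 0.62 in DSS against control (limma adjusted p = 1.0). These values rest on control replicate 2: without it the difference was -0.47 in tumor against control and 0.43 in DSS against control, and without control replicate 1 it was -2.78, which passed. With each array centred on its median, tumor against control also passed, at -1.87. In each tumor comparison S100g passed in 4 of 17 alternatives, among them the replicate block in the 2 compared groups alone. Tumor against DSS passed without either control array, at the same -0.90, since those arrays enter it through the spread alone.

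The genes most like S100g over the 6 arrays, by Pearson's r of log2 values, were Mib2 (0.990), Fbxo4 (0.987) and Iqcc (0.982), a ubiquitin ligase, an F-box protein and an IQ-motif gene. All 3 were highest on control replicate 2, as S100g was, and none passed in tumor against control.

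S100a6 and S100a10, both abundant in epithelia, showed no difference past the test between any groups. S100a6, or calcyclin, measured 12754 and 13293 in control, 15729 and 13209.5 in DSS and 13389 and 11898 in tumor crypts. S100a10, which holds annexin A2 as a tetramer and has lost calcium binding, measured 11435 and 11012 in control, 13025 and 10993 in DSS and 12197 and 10581 in tumor crypts. The 3 groups overlapped for both. The 95% intervals of the log2 difference were narrow for tumor against control, -0.38 to 0.29 for S100a6 and -0.33 to 0.36 for S100a10. They were -0.19 to 0.49 and -0.25 to 0.44 for DSS against control. The other S100a10 probe set, from 8097 to 10289 over the 6 arrays, gave -0.03 in tumor against control. The residual SD of log2 values within groups was 0.13 for both genes, against a median of 0.20 over all genes tested, 0.98 for S100g, 1.39 for S100a8 and 1.63 for S100a9.

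**Figure D4:**
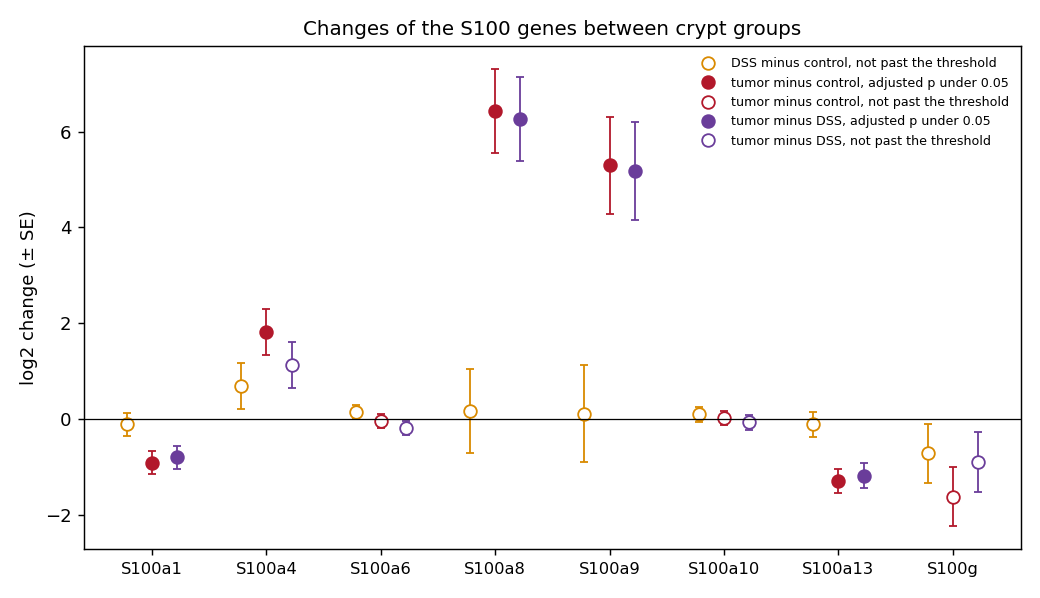
Log2 change (± SE, n = 2 arrays per group) of the 8 S100 genes in 3 comparisons; filled circles have an adjusted p under 0.05 and open circles do not. S100a8 and S100a9 stand at 5.18 to 6.43 in both tumor comparisons, S100a1 and S100a13 lie below 0 there, and all changes in DSS against control are open.

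In DSS against control, then, none of the 8 genes passed and the groups overlapped for all 10 probe sets. Limma called 0 of 7456 genes (0%) in that comparison at the adjusted threshold, with 187 at an unadjusted p under 0.05, none of them a member. Groups did not overlap for 12.8% of all genes tested with DSS higher and for 13.7% with DSS lower.

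Binding partners of S100 proteins, 9 of 21 tested, had 4 called higher in tumor crypts and 1 lower, beside 12.9% and 9.75% of all genes tested, with a median log2 change of 0.17 against 0.05 over all genes. Plat, 1 of the 4, passed the filter through the tumor arrays alone. Anxa2, the annexin that S100a10 binds, rose from 7558 and 6999 in control to 11688 and 10860.0 in tumor crypts, by 0.63 (limma adjusted p = 0.0163), while S100a10 did not pass. Its 2 other probe sets, at 118 or less, gave -0.15 and -0.12, and as the mean of its probe sets that passed the filter Anxa2 was at 0.26 and not called. Anxa1, the annexin partner of S100a11, rose from 6711 and 7968 to 12650.0 and 10715, by 0.67 (limma adjusted p = 0.0205). Cyba, a subunit of the phagocyte oxidase that calprotectin assists, rose by 1.61 (limma adjusted p = 0.000429), from control arrays already at 1434 and 1739. Cybb, Ncf1, Ncf4 and Rac2, further genes of that oxidase, stayed under the median on every array and were not tested. Tumor replicates 1 and 2 read 9.46 and 44.3 for Cybb, 28.2 and 129 for Ncf4, and 36.6 and 109 for Rac2. No Ncf1 value exceeded 20.7. The part of phagocytes in the Cyba signal was not tested. Plat, the tissue plasminogen activator that S100a10 helps to act at the cell surface, had 22.7 and 35.4 in control, 22.6 and 37.2 in DSS and 1617 and 3033 in tumor crypts. Its fitted change of 5.59 is taken against signal near the floor and was 4.10 to 6.24 with other pseudocounts. Fgf1, the growth factor exported with S100a13 and named after its values were seen, fell by 0.84 (limma adjusted p = 0.0302), with control arrays at 299 and 212 and tumor arrays at 140.03 and 127. Cacybp, the partner of S100a6, measured 2270 and 1890.2 in control, 1501 and 1472 in DSS and 2208 and 2007 in tumor crypts, with the smallest p of the list in DSS against control (difference -0.47, limma adjusted p = 1.0).

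Receptors of S100 proteins, 5 of 7 tested, had 1 called higher and none lower in tumor crypts, beside 12.9% and 9.75% of all genes tested. Their median log2 change was -0.19, against 0.05 over all genes. Ager, the receptor for advanced glycation end products, lay under the median on every array, at 3.59 to 37.5, and was not tested. Tlr4, the Toll-like receptor that calprotectin activates, measured 290.1 and 289 in control, 298 and 211 in DSS and 205 and 200.3 in tumor crypts. It did not pass (-0.48), and its other probe set gave 0.10. Its partner Ly96 did not pass either, at -0.23 (limma adjusted p = 0.414). Their co-receptor Cd14 rose by 0.70 (limma adjusted p = 0.0422), from 1568 and 1270.5 to 2020.3 and 2645. Median centring shifts the median change of all genes in tumor against control from 0.05 to -0.20 and the split of calls from 959 higher and 727 lower to 649 and 1225. Under it the calls of Anxa2 (0.38), Anxa1 (0.42) and Cd14 (0.46) ended, while those of the S100 genes held. Leaving out single arrays also ended these 3 calls, for Anxa2 and Anxa1 without control replicate 1 (0.69 and 0.55), control replicate 2 (0.57 and 0.79) or tumor replicate 1 (0.58 and 0.55). The Cd14 call ended without any array other than tumor replicate 1, at 0.51 to 0.85.

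The vitamin D and calcium transport list, of which 4 of 12 were tested, had 1 called lower in tumor crypts, Vdr, and none higher. Of all genes tested, 9.75% were called lower and 12.9% higher. The median log2 change of the list was -0.42, against 0.05 over all genes. Vdr, the vitamin D receptor that controls S100g, fell from 1602 and 1908 in control and 1742 and 1899 in DSS to 469 and 486 in tumor crypts, by 1.83 on the log2 scale (limma adjusted p = 0.000289). The groups were far apart and its other probe set gave -1.94. Trpv6, the calcium channel of the apical membrane, did not pass at -0.52, with control arrays at 306 and 336 and tumor arrays at 163 and 289. Cldn2, a pore-forming claudin, did not pass against control (0.26, limma adjusted p = 0.361). It rose against DSS crypts, by 0.64 (limma adjusted p = 0.0392). Its other probe set, at 71.9 to 119 over the arrays, gave 0.06 against DSS and -0.18 against control.

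Regulators of S100a8 and S100a9, 7 of 10 tested, had 1 called higher and none lower in tumor crypts, beside 12.9% and 9.75% of all genes tested. Their median log2 change was 0.45, against 0.05 over all genes, with 6 positive and 1 negative. The 1 called was Stat3, which rose by 1.06 (limma adjusted p = 0.0214). Stat3, which carries signals of interleukins such as IL-6, measured 578 and 357 in control, 619 and 532 in DSS and 832 and 1120.4 in tumor crypts, and its call ended without control replicate 2 (0.72) or tumor replicate 2 (0.85). The NF-kB subunit Rela was at 0.83 (limma adjusted p = 0.0549) and the myeloid factor Cebpa, a C/EBP gene, at -0.57 (limma adjusted p = 0.0616). The C/EBP genes Cebpb and Cebpd had positive differences, at 0.84 and 0.39, and did not pass. Their other probe sets gave 0.89 and -0.16. Junb, an AP-1 subunit, had the smallest p of the list in DSS against control, with 740.3 and 573 in control and 1509 and 1368 in DSS crypts, and did not pass (1.12, limma adjusted p = 0.573). Other EF-hand genes, 25 of 32 tested, had 5 called higher and 3 lower in tumor crypts, beside 12.9% and 9.75% of all genes tested. Their median log2 change was 0.30, against 0.05 over all genes. Pls3, an actin bundler, rose by 2.07 (limma adjusted p = 0.00211). Gca, or grancalcin, fell by 1.43 (limma adjusted p = 0.00340) and Calml4, a calmodulin-like protein of brush border links, by 1.23 (limma adjusted p = 0.00437). In this list Pls1, a brush border bundler, had the smallest p in DSS against control, at -0.21 (limma adjusted p = 1.0).

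Of the further S100 genes, 3 of 15 on the list were tested and none was called in any comparison. S100a3, S100a5 and S100b lay under the median on all arrays, with intensities of 1.25 to 8.17, 14.3 to 40.7 and 1.55 to 34.2. S100pbp, which encodes an S100 binding protein and no S100 protein, was at -0.06 in tumor against control (limma adjusted p = 0.932).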

How the data were processed

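The authors deposited 1 linear signal intensity per probe set and array, made with MAS5 per the submitters' processing notes; its version is not given in the sources used here. Across every array the mean without the highest and lowest 2% was near 500.2, as computed from the values. No detection calls or raw array files were used here, and the number of arrays limits the precision. Members and gene lists were chosen with earlier results of these data known.

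After 64 control probe sets were left out, 20380 of 22626 probe sets had 1 gene symbol, 691 several and 1555 none, and an update by gene identifier changed no symbol. The filter kept probe sets that exceeded the array median on 2 or more arrays, and each gene was represented by its brightest one (7456 genes). Log2 of intensity plus 17.7, the 25th percentile, was fitted over the 3 groups with limma 3.58.1 (R 4.3.3, intensity trend). The 3 differences were tested 2-sided, with a Benjamini-Hochberg threshold of 0.05. Nothing in the labels says more of the pools than that they are biological replicates. The fit was tested on simulated data. Alternatives covered scaling, pseudocount, filter, probe set choice, trend, 2-group fits, a replicate block, and leaving out single arrays. Named were all members, the up to 3 genes of smallest p in tumor against control and the 1 in DSS against control of each related list, 7 fixed genes, the 2 brightest genes of each marker list, and the 3 genes most like S100a8 and S100g. Ltf, Ngp, Mmp9, Mpo, Elane, Itgam, Krt20, Cybb, Ncf1, Ncf4, Rac2, Cebpb and Cebpd were chosen after their values were seen.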

Additional observations from a re-analysis of the deposited data

How the results depend on the processing

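With 2 arrays per group, single arrays decide several calls, and genes near the floor have only loose sizes. S100a8 and S100a9 kept direction in both tumor comparisons under every alternative in which they were tested (S100a9 did not pass the 75th percentile filter, nor did S100a4 and S100g). Their calls are not used as support, since both passed the main filter through the tumor arrays alone. S100 genes called in tumor against control numbered 5 of 8 tested, and 3 with no filter. They were also 3 with a stricter filter at the 75th percentile. There S100a4 and S100a9 were no longer tested, and S100a1, S100a8 and S100a13 kept their calls. In tumor against DSS 4 S100 genes were called. Both counts moved when single arrays were left out. With the 75th percentile filter, where 4160 genes were tested, 1103 genes were called in tumor against control and 1262 in tumor against DSS, against 1686 and 1952. With an array left out the counts were 853 to 1753, 900 to 1921 and, in DSS against control, 0 to 2.

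Arrays of the same number share only that number in the labels. Their deviations from group means correlated at 0.45 between control and DSS, 0.44 between DSS and tumor and 0.08 between control and tumor arrays. With the replicate block in the 2 compared groups alone, which leaves 1 residual degree of freedom, DSS against control had 121 genes called and 1 S100 gene, S100g at -0.72. The same block gave 1639 calls in tumor against control and 2942 in tumor against DSS, with 6 S100 genes among each. With all 3 groups and the block, 0 genes passed in DSS against control.

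Signs turned in several differences that had not passed the test. In tumor against control S100a6 was at 0.14 with quantile normalization, and S100a10 at -0.23 with median centring and -0.0073 as the mean of its probe sets. In tumor against DSS quantile normalization put S100a6 at 0.10 and S100a10 at 0.19. With an array left out, changes in DSS against control ranged from -0.40 to 0.16 for S100a1, -0.0092 to 1.37 for S100a4, -0.30 to 0.62 for S100a8, -0.15 to 0.36 for S100a9, -0.030 to 0.21 for S100a10, -0.48 to 0.26 for S100a13 and -1.88 to 0.43 for S100g. In tumor against control they ranged from -0.13 to 0.040 for S100a6 and -0.085 to 0.12 for S100a10, and in tumor against DSS from -0.20 to 0.047 for S100a10. The cause was not tested.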

Other observations

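The probe set that lists S100a11 also lists its pseudogene S100a11-ps and Gm12854, 3 names in all, so its signal cannot be given to 1 gene and it was left out of the fit. Its intensities were 3717 and 3611 in control, 4238 and 4170.0 in DSS and 10122 and 10732 in tumor crypts. Both tumor arrays lay above all others, and both DSS arrays above both control arrays. S100a11 lies next to S100a10 on chromosome 3, whose values overlapped between the groups.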
